A study of Mus musculus with 3 samples.

Results

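A20 and the proteins that work with it in editing ubiquitin chains are encoded by 8 genes, chosen by name: Tnfaip3 (A20), Tnip1, Tnip2 and Tnip3 (the A20-binding proteins ABIN1, ABIN2 and ABIN3), Cyld, Tax1bp1, Itch and Rnf11. All 8 were found among the 55536 annotated genes and were measured in every library. The RNA came from the chromatin fraction of primary macrophages, grown from bone marrow of the C57BL/6J strain, that had received Lipid A at 100 ng/ml for 40 min. Lipid A is the part of bacterial lipopolysaccharide that Toll-like receptor 4 recognises. The group held 3 biological replicates (replicates 1, 2 and 3), sequenced as total RNA after removal of ribosomal RNA. The labels register them as separate biosamples under 1 donor entry, with neither age nor sex collected. Their libraries started from 1 µg, 250 ng and 500 ng of RNA in replicates 1, 2 and 3. RNA from unstimulated cells, another time or another fraction was not analysed here, so each gene's level was compared with other genes of the same library, and no value below is a response to Lipid A.

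A20 is an ovarian tumour family deubiquitinase that also has a ubiquitin ligase activity in its zinc fingers. It takes activating ubiquitin chains off signalling proteins such as RIPK1 and restrains NF-κB, and its own gene is a classical NF-κB target in macrophages. The ABIN proteins bind ubiquitin chains and A20, while TAX1BP1, the ligase ITCH and the RING finger protein RNF11 are described as its partners in a ubiquitin-editing complex. CYLD is a separate deubiquitinase of the ubiquitin-specific protease family that also cleaves ubiquitin chains.

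The bases before the start of transcription are shown for the 3 members with the highest levels and for Cyld, because all 4 hold a match to the NF-κB consensus, which is in capitals. RefSeq promoter windows on build GRCm38.p6 were available for 6 of the 8 members, Itch and Rnf11 being without one, and the 250 bases before the start were searched on both strands. The sequences are written 5′ to 3′ on the strand of the gene.
Tnfaip3, chr10:19015411-19015660, minus strand: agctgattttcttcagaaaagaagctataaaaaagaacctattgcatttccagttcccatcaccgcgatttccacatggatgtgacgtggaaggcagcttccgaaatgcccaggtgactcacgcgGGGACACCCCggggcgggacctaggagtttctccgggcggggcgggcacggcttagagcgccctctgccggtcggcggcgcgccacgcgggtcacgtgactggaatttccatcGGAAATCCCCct
Tnip1, chr11:54962941-54963190, minus strand: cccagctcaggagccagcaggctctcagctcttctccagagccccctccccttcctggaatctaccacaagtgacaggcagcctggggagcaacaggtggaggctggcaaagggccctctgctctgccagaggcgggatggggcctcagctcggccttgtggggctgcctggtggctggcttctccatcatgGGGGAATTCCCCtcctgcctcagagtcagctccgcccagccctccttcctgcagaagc
Tnip3, chr6:65590148-65590397, plus strand: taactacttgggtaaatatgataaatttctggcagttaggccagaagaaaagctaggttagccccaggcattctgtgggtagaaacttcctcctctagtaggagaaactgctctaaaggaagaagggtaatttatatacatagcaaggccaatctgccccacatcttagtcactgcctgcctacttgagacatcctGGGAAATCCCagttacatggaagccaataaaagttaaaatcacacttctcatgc
Cyld, chr8:88696778-88697027, plus strand: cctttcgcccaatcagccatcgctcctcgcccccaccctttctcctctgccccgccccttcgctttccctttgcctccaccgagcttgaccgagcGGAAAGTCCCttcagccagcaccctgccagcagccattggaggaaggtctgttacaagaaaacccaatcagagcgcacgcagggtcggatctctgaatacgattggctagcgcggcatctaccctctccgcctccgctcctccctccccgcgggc

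In Tnfaip3, 2 separate matches lay 125 to 116 and 12 to 3 bases before the start. In Tnip1, 3 overlapping matches of 10 letters (GGGGAATTCC, GGGAATTCCC and GGAATTCCCC) formed a single block 58 to 47 bases before the start. Tnip3 held GGGAAATCCC, which matches on both strands, 54 to 45 bases before the start, and Cyld held GGAAAGTCCC 155 to 146 bases before it. The window of Tnip2, both windows of Tax1bp1 and a downstream window of Tnfaip3 held no match with these letters. Over the whole RefSeq table, 3.9% of 32851 windows and 4.46% of 27025 genes held at least 1 match, against 4 of the 6 members. A match is a description of letters, not of a factor bound there.

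Total expected counts, the reads assigned to annotated features, were 12699813 to 18280033 per library, and replicate 1 was the shallowest. The share of counts on tRNA, spike-in and phiX rows was 1.26% in replicate 1, against 0.223% and 0.2% in replicates 2 and 3. All 8 macrophage markers, Csf1r and Cd14 among them, were higher than the reference gene defined below, with a mean TPM (transcript abundance scaled for length and depth) of 19.0 to 208. Of 26 markers of other cell types, 23 had a mean TPM under 1 and 9 were at 0 in every library. The highest were Alas2 at 3.38 TPM, an erythroid gene, and Cd4 at 2.96 TPM. As in any bulk sample, fewer cells of a type and less RNA per cell cannot be told apart.

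The reference gene is each library's median over 8765 expressed protein-coding genes of the nuclear genome, and stood at 7.56, 6.64 and 6.56 TPM in replicates 1, 2 and 3. A gene was called higher or lower where limma's treat method placed it outside a 2-fold band around that reference, at a Benjamini-Hochberg adjusted p under 0.05 over all 18405 genes tested. Of the 8 members, 6 were called higher and 0 lower, while 15.1% of all genes tested were called higher and 52.4% lower. Among the 12296 protein-coding genes tested, 2395 (19.5%) were called higher and 5469 lower. At an unadjusted p under 0.05 in limma treat, 0 members were lower. All 8 members passed the filter on low values. The members were chosen with earlier results on these libraries known, so their count describes them and is not a test of the set.

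The editing enzyme stood at the top. Tnfaip3 reached 929.7, 622.47 and 741.81 TPM in replicates 1, 2 and 3. These values rested on 39790, 40988 and 48184 expected counts. The mean of 765 ± 155 (SD, n = 3) was the 13th highest of 22028 protein-coding genes. Against the reference gene its level was 108-fold, or 6.75 ± 0.16 log2 units (SE), higher (limma treat, adjusted p = 3.4e-05), and it was higher in 3 of 3 libraries. Tnfaip3 alone held 50.6%, 49.8% and 57.3% of the summed TPM of the 8 members in replicates 1, 2 and 3.

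The A20-binding proteins spread over a wide range. Tnip3, which encodes ABIN3, reached 553.17, 306.22 and 235.47 TPM in replicates 1, 2 and 3. Replicate 1 stood apart, at more than either of the others, and the mean was 365 ± 167 (SD, n = 3). Tnip1, whose product ABIN1 is an adaptor that brings A20 to ubiquitin chains, had 184.36, 181.41 and 171.13 TPM. These 3 values lay close together, with a mean of 179 ± 6.95. Tnip2, whose product ABIN2 also forms a complex with the kinase TPL2 and the NF-κB precursor p105, had 30.17, 29.68 and 26.76 TPM, a mean of 28.9 ± 1.84. All 3 genes were higher than the reference gene in 3 of 3 libraries. Relative to it, Tnip3 was 5.61 ± 0.22 (SE) log2 units higher (adjusted p = 6.4e-05), Tnip1 4.68 ± 0.12 (adjusted p = 3.4e-05) and Tnip2 2.05 ± 0.12 (adjusted p = 0.00039, all from limma treat). Among protein-coding genes Tnip3 ranked 54, Tnip1 181 and Tnip2 1578.

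The other partners of A20 covered the rest of the range. Tax1bp1, an adaptor that also serves in selective autophagy, showed 98.64, 80.54 and 86.98 TPM in replicates 1, 2 and 3, a mean of 88.7 ± 9.17 (SD, n = 3). It exceeded the reference gene by 3.66 ± 0.11 log2 units (SE; limma treat, adjusted p = 4.7e-05). Itch, a ligase of the HECT family, had 24.51, 18.56 and 20.48 TPM, a mean of 21.2 ± 3.04. It exceeded the reference gene by 1.59 ± 0.12 log2 units (limma treat, adjusted p = 0.0033), and both genes were higher in 3 of 3 libraries. Rnf11 was the lowest member at 3.93, 2.28 and 2.94 TPM in replicates 1, 2 and 3, resting on 204, 162 and 214 expected counts. It lay below the reference gene in all 3 libraries, by -1.19 ± 0.18 log2 units, which did not pass the 2-fold test (adjusted p = 0.24, limma treat).

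Cyld, the deubiquitinase outside the complex, had 13.83, 10 and 8.67 TPM in replicates 1, 2 and 3, a mean of 10.8 ± 2.68 (SD, n = 3). All 3 libraries were above the reference gene, by 0.61 ± 0.15 (SE) log2 units on average, which is within the 2-fold band (adjusted p = 1, limma treat). Cyld ranked 3388 and Rnf11 6323 of the 22028 protein-coding genes, whereas the 6 members called higher ranked between 13 and 2076. Calls of the lower members depend on which genes set the reference. With reference genes taken from a TPM of 5 upward, every gene's level shifts by -1.19 log2 units, Tnip2 (0.86) and Itch (0.40) are no longer called higher, Cyld turns to -0.58 and Rnf11 is called lower.

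**Figure D1:**
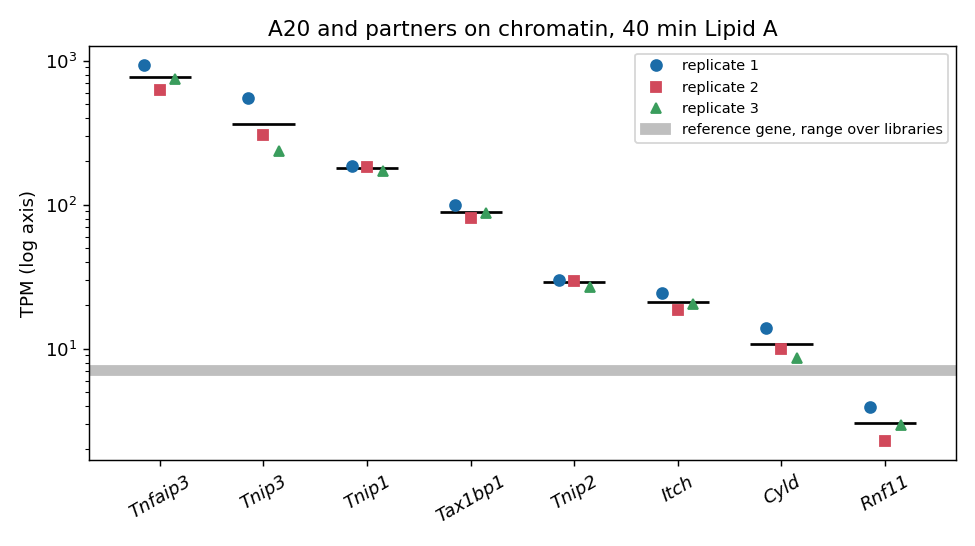
TPM (log axis) of the 8 members in each library, with the replicates as 3 marker shapes and a black line at the mean of 3. The grey band spans the reference gene's TPM of 6.56 to 7.56, and the members run from Tnfaip3 at a mean of 765 to Rnf11 at 3.05, the only one below the band in all 3 libraries.

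Ordered by mean level the members ran Tnfaip3, Tnip3, Tnip1, Tax1bp1, Tnip2, Itch, Cyld and Rnf11. Each of the 7 neighbouring pairs kept this order in 3 of 3 libraries, with a mean difference in log2(TPM + 0.1) above the SD of the differences. Across libraries the TPM ranges of neighbours did not overlap. The nearest pair was Tnip2 over Itch, 0.45 ± 0.20 log2 units apart (SD, n = 3), and the widest was Cyld over Rnf11, at 1.80 ± 0.28. With 3 libraries the exact two-sided sign-flip permutation test gave p = 0.25 for each pair (0.25 after adjustment over the 7 pairs), which is the smallest value it can give.

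A single pair, Tnip3 over Tnip1, depended on the table. In the table made from transcriptome alignments (the alignment-based table), which all values above come from, it was 0.93 ± 0.58 log2 units (SD, n = 3). In the alignment-free table, made directly from the reads, Tnip3 averaged 413 ± 217 TPM and Tnip1 444 ± 87.8, so the difference turned to -0.21. Counting protein-coding isoforms only, Tnip3 had 34.9 ± 16.7 TPM and Tnip1 81.6 ± 7.59, a difference of -1.31, and Tax1bp1 at 48.7 ± 2.22 also stood above Tnip3. Tnfaip3 remained first in all 3 versions, with 1138 ± 378 TPM in the alignment-free table and 250 ± 31.1 TPM in protein-coding isoforms.

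Most of the Tnip3 level lay on isoforms that keep intron sequence. Of its TPM, 90.0%, 92.0% and 88.8% in replicates 1, 2 and 3 fell on isoforms annotated as retained intron, transcripts that keep part of an intron. This share of 90.3% ± 1.63 (SD, n = 3) lay at percentile 98.6 of 5825 genes that have both retained-intron and protein-coding isoforms, whose median was 40.2%. The tables hold annotated transcripts only, and unspliced RNA, which a chromatin fraction also holds, was not measured separately.

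Among the 4 retained-intron isoforms of Tnip3, Tnip3-205 had 157.05, 93.09 and 72.54 TPM in replicates 1, 2 and 3. At 842 bases it had 1366.46, 1265.5 and 937.68 expected counts, against 6818.62, 4338.99 and 3644.54 for the longer Tnip3-206. Tnip3-204, a single exon of 2624 bases, had 112.94, 83.92 and 63.12 TPM. Tnip3-206, a single exon of 4627 bases near the start of Tnip3-201, had 111.62, 43.29 and 39.11 TPM and spans a whole intron. The full-length coding isoform that starts at the promoter shown above, Tnip3-201 (3769 bases), had 54.2, 24.35 and 26.29 TPM. Tnip3-203 (426 bases), the remaining retained-intron isoform, had 116.23, 61.57 and 34.41 TPM. Each of these isoforms had its highest TPM in replicate 1. Tnip3-207, a coding isoform whose annotated start on chromosome 6 (65525385) lies far upstream, was at 0 in the alignment-based table of every library but had 76.0, 49.8 and 37.7 TPM in the alignment-free table.

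**Figure D2:**
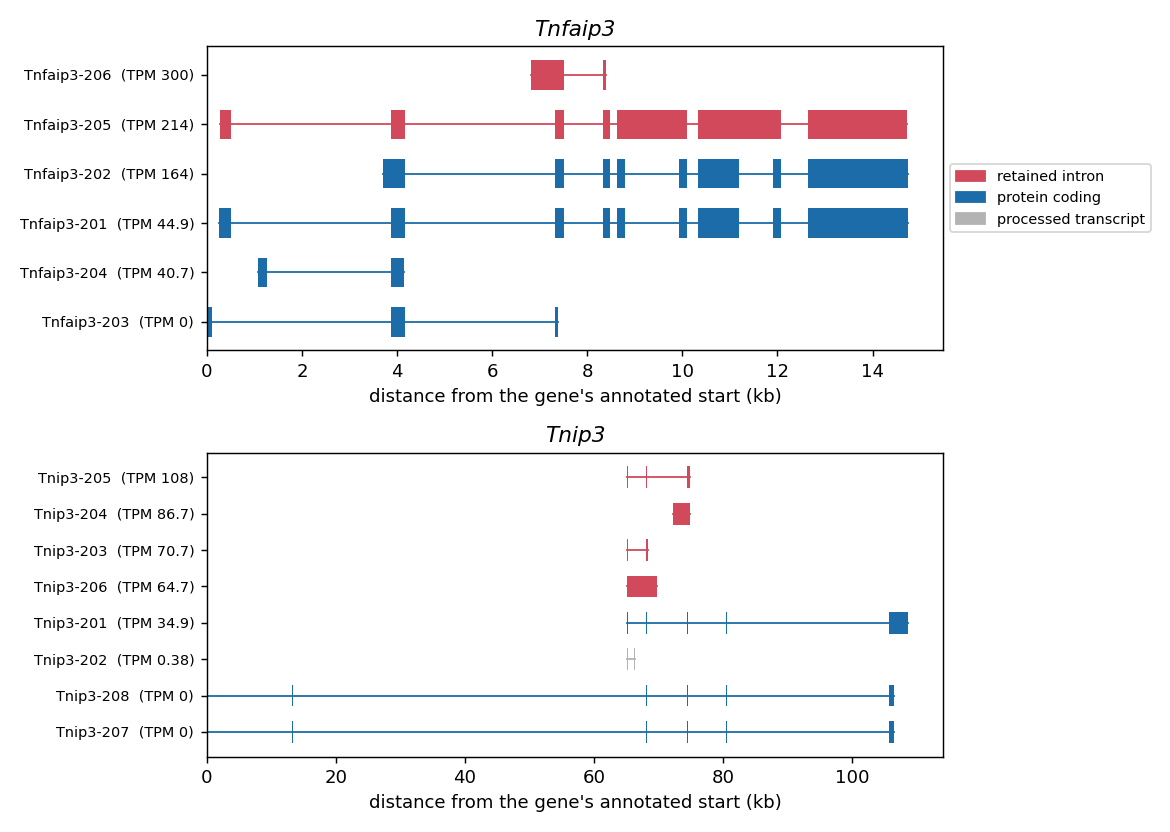
Exons (boxes) of the annotated isoforms of Tnfaip3 and Tnip3, drawn to scale as kb from each gene's annotated start, with mean TPM of 3 libraries beside each name and colour for the annotated type. The short retained-intron isoforms Tnfaip3-206 (300 TPM) and Tnip3-205 (108 TPM) carried the most TPM in their genes, but not the most expected counts. The values drawn are from the alignment-based table, where the upstream-starting Tnip3-207 and Tnip3-208 were at 0. In the alignment-free table Tnip3-207 had 76.0, 49.8 and 37.7 TPM in replicates 1, 2 and 3.

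Tnfaip3 also had most of its TPM on retained-intron isoforms, 72.4%, 65.3% and 62.7% in replicates 1, 2 and 3. The mean share of 66.8% ± 5.03 (SD, n = 3) lay at percentile 85.5 of the same genes. Tnfaip3-206, a short isoform of 764 bases, had 368.55, 257.1 and 275.67 TPM. These rested on 2808.88, 3036.33 and 3107.64 expected counts, against 25233.5, 20357.5 and 23940 for the longer Tnfaip3-205. Tnfaip3-205 (6199 bases), which contains introns 5 and 7 of Tnfaip3-201 in full, had 304.58, 149.46 and 189.2 TPM. The coding isoform Tnfaip3-202 had 202.19, 126.53 and 164.07 TPM, and Tnfaip3-201 had 0.58, 58.76 and 75.24 TPM. Tnfaip3-201 was nearly absent from replicate 1 alone, where the alignment-free table gave it 42.7 TPM, so the division between these long, overlapping isoforms was uncertain. The alignment-free table put 53.3% ± 1.82 of Tnfaip3 on retained-intron isoforms.

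Across the other members the retained-intron share of TPM was 63.3% ± 1.22 in Itch, 45.7% ± 2.30 in Tnip2, 43.8% ± 3.87 in Tax1bp1, 34.0% ± 4.90 in Cyld and 31.5% ± 3.96 in Tnip1 (SD, n = 3). Rnf11 has no isoform of that type. Over the 7 members with one, the median of these shares was 45.7%, against 40.2% over all 5825 genes. Shares of TPM weight short isoforms more than shares of reads do. For Tnip1 the only retained-intron isoform, Tnip1-209, has 442 bases and carried 56.5 TPM on average but 7.06% ± 1.49 of the gene's expected counts, while coding isoforms held 89.0% ± 1.96 of them. For Tnip2 the retained-intron share was 19.9% ± 1.73 of expected counts, but 65.9% ± 0.45 of alignment-free TPM. For Itch it was 39.9% ± 2.89 of expected counts, where coding isoforms held 59.7% ± 2.35, but 73.8% ± 0.89 of alignment-free TPM. In the other members with such isoforms the alignment-free share lay below the share of TPM. For Cyld the retained-intron share was 23.7% ± 5.42 of expected counts, and for Tax1bp1 47.1% ± 4.15, above its share of TPM. For Tnip3 it was 82.1% ± 2.04 of expected counts and for Tnfaip3 61.2% ± 8.02. In these 2 genes isoforms annotated as retained intron thus held most of the level by either measure. Unspliced RNA was not measured separately from such isoforms.

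**Figure D3:**
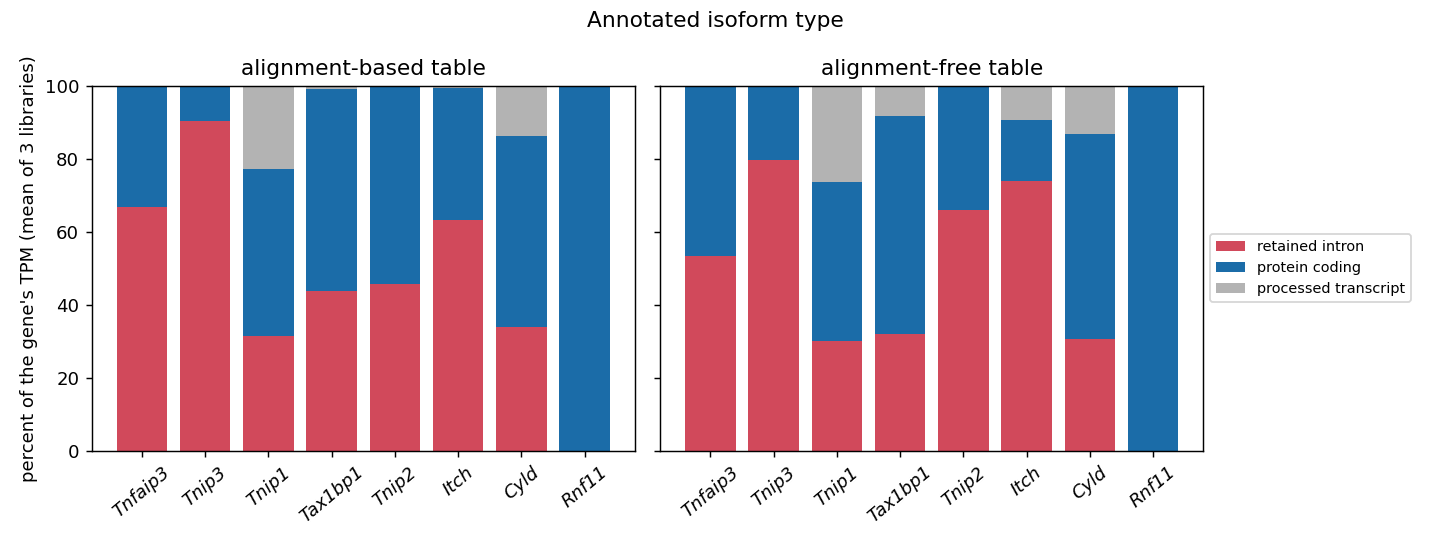
Share of each member's TPM (percent, mean of 3 libraries) on retained-intron, protein-coding and processed-transcript isoforms, in the alignment-based table on the left and the alignment-free table on the right. Tnip3 has the largest retained-intron share in both panels, at 90.3% and 79.7%, and Rnf11 has none.

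The libraries were next compared for each gene on a count scale, log2 CPM (counts scaled for library size) after TMM scaling. Tnip3 varied most among the members, with an SD of 0.48 that lay at percentile 84.6 of 12931 expressed genes. Its deviations from its own mean were 0.53, -0.13 and -0.41 in replicates 1, 2 and 3, a 1.92-fold span. Without replicate 1 the SD was 0.19, below the 0.32 of Rnf11 in the same libraries. Replicate 1 also had the largest RNA input, the lowest depth and the largest share of counts off genes, and the part of these in the difference was not tested.

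Rnf11 followed with an SD of 0.36, highest in replicate 1 and lowest in replicate 2, and it had the fewest counts of the 8. Without replicate 2 its SD was 0.20. Tnfaip3 had an SD of 0.18, with replicate 2 lowest, at 0.05 without that library. Tnip1 had 0.16, and its lowest library on this scale was replicate 1, although its TPM was highest there. Without replicate 1 its SD was 0.0032, and scaling by library size alone gave 0.067. Tnip2 (0.13), Cyld (0.12), Tax1bp1 (0.06) and Itch (0.02) had smaller SDs with TMM scaling, where Itch was at percentile 0.518. These small values depended on the scaling and on single libraries. Itch had an SD of 0.11 with library size alone and on the TPM scale, and 0.0086 without replicate 3. Cyld had 0.20 with library size alone, 0.23 on the TPM scale and 0.020 without replicate 3, and Tnip2 had 0.086 on the TPM scale and 0.038 without replicate 2. Tax1bp1 had 0.025 without replicate 3 and 0.0078 from the alignment-free counts. On the TPM scale Tnip1 had 0.081, so Cyld varied more than Tnip1 there, and the order of the less variable members is not settled. The median SD of the members was 0.147, against 0.272 over all expressed genes. Those genes were not matched to the members for counts, so this contrast and the percentiles are not comparisons at equal level.

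**Figure D4:**
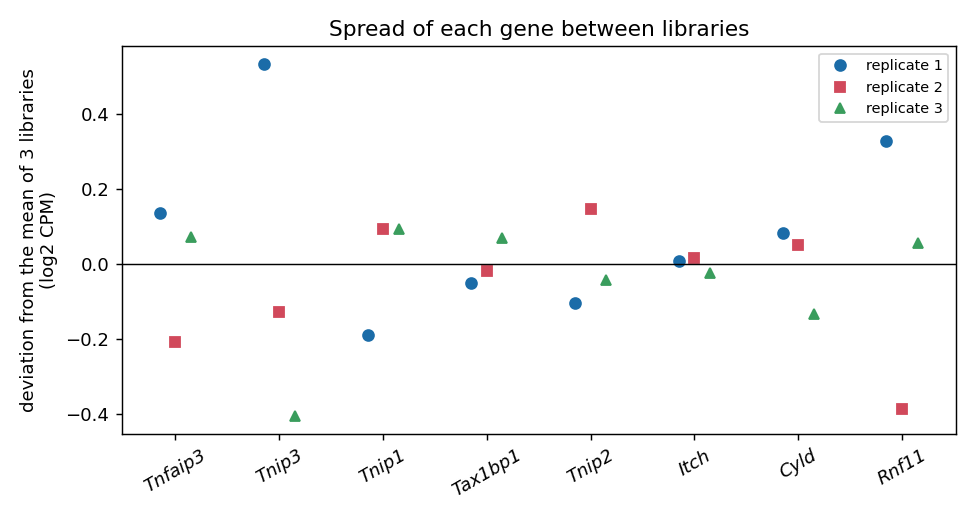
Deviation of each library from the mean of the 3 libraries (log2 CPM) for the 8 members, ordered by mean TPM, with the replicates as 3 marker shapes. Tnip3 spans 0.53 in replicate 1 to -0.41 in replicate 3, and Itch spans 0.02 in replicate 2 to -0.03 in replicate 3.

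Counts and TPM rank some members differently because effective lengths differ. Tnip1 had 2403, 3823 and 3706 expected counts in replicates 1, 2 and 3 at an effective length of 942, 921 and 1021 bases. Tax1bp1 had more counts, 3870, 5172 and 5327, at an effective length of 2835, 2806 and 2888 bases, but the lower TPM. Cyld, on 668, 855 and 728 counts, likewise had more reads than Tnip2, on 495, 772 and 655.

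The sources do not say whether counting used the strand. It is thus not known whether reads of a gene were kept apart from those of a gene on the opposite strand. Tnfaip3, Tnip2, Tnip3 and Rnf11 overlap no other annotated gene. Within Tnip1 lies Gm12230, a processed pseudogene on the opposite strand, which had 87.0, 58.07 and 62.74 TPM on 292, 279 and 298 expected counts in replicates 1, 2 and 3. Tax1bp1 and Cyld each overlap 2 and Itch overlaps 1 such small gene, with at most 41 expected counts in any library.

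The other genes of the pathway were taken as 59 genes in 6 lists, of which 34 were called higher than the reference gene, 2 lower and 23 neither. The share called higher was thus 57.6%, against 19.5% of the protein-coding genes tested. Without the IκB family and the NF-κB subunits, 23 of 48 genes (47.9%) were called higher and 2 lower, with a median of 1.30 log2 units. The members' median level was 2.85 log2 units above the reference gene, against -1.74 over all genes tested and -1.09 over the protein-coding ones. Of 13 ubiquitin ligases and conjugating enzymes 5 were higher, with a list median of 1.29 log2 units. Birc3, which encodes the ligase cIAP2, had 289.97, 150.32 and 153.25 TPM in replicates 1, 2 and 3, and Ube2d3, a conjugating enzyme, averaged 105 ± 27.4 TPM (SD, n = 3). Peli1, a ligase of Toll-like receptor signalling, averaged 20.3 ± 11.3 and was not called, as its libraries ran between 8.06 and 30.46 TPM. Traf5 was lowest at 4.33 ± 1.37.

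Of 8 other deubiquitinases 4 were higher, and all stood below Tnfaip3 in mean TPM. Otud5 (46.8 ± 7.91 TPM), Usp4 (40.8 ± 13.7) and Usp25 (19.3 ± 1.84) were the highest, and Usp18, which removes the ubiquitin-like ISG15, was the lowest at 5.09 ± 1.70 (SD, n = 3). Cyld, at 10.8 TPM, was thus within the range of this list.

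Receptor adaptors and kinases numbered 17, of which 9 were higher and 2 lower. The IKK-related kinases led, Ikbke with 492.31, 400.18 and 419.43 TPM in replicates 1, 2 and 3 and Tbk1 with 130 ± 20.1, followed by Ikbkb, the IKKβ gene, at 80.3 ± 10.1 (SD, n = 3). Tradd, the TNF receptor adaptor, at 1.59 ± 0.23 TPM, and Tab3, a ubiquitin-binding partner of TAK1, at 1.58 ± 0.75, were the 2 genes called lower (adjusted p = 0.0029 and 0.0045, limma treat). Tradd was -2.06 ± 0.21 (SE) and Tab3 -2.14 ± 0.25 log2 units relative to the reference gene.

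Of 10 other ubiquitin readers and adaptors 5 were higher. Sqstm1, which encodes the autophagy receptor p62, had 979.23, 763.59 and 819.22 TPM in replicates 1, 2 and 3, above Tnfaip3 in each library. Tank, an adaptor of TBK1, averaged 255 ± 128 and Optn, a ubiquitin-binding relative of IKKγ, 58.9 ± 12.8 (SD, n = 3), while Ndfip2, an activator of Itch-type ligases, was lowest at 5.08 ± 1.47.

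The IκB family and the subunits of NF-κB itself were called higher throughout. All 6 genes of the IκB family were higher, with a median of 4.07 log2 units, led by Nfkbia at 422 ± 30.3 TPM, Nfkbiz at 403 ± 101 and Nfkbie at 133 ± 42.8 (SD, n = 3), with Bcl3 lowest at 29.1 ± 5.12. All 5 NF-κB subunit genes were higher, with a median of 3.28 log2 units, led by Nfkb1 at 164 ± 34.6, Nfkb2 at 142 ± 12.9 and Relb at 68.0 ± 6.76, with Rela lowest at 43.0 ± 8.79. Tnfaip3 had a higher TPM than each of these 11 genes in every library. The differences between lists were not tested.

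**Figure D5:**
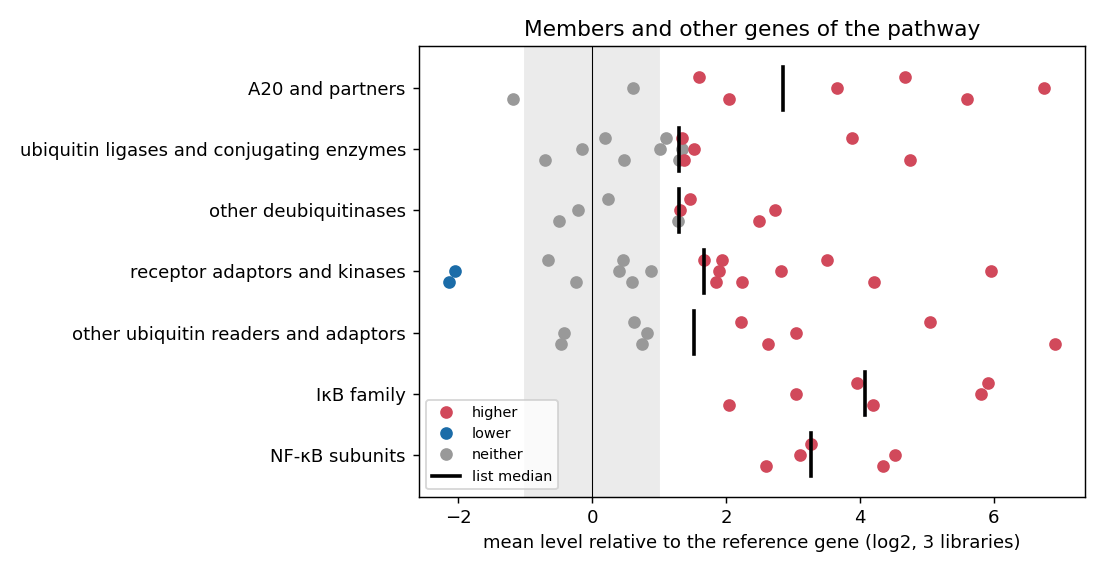
Mean level relative to the reference gene (log2, 3 libraries) of each member and of the 59 other genes, 1 row per list, coloured by call, with a black line at each list's median and the 2-fold band shaded. The members have a median of 2.85, the IκB family 4.07 and NF-κB subunits 3.28, and Tradd and Tab3 are the 2 genes called lower; with reference genes from a TPM of 5 every point shifts by -1.19.

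The protein-coding genes with the pattern most like that of Tnfaip3 were named by the Euclidean distance of log2(TPM + 0.1) over the 3 libraries. Nearest were Hnrnpa2b1 (distance 0.15, mean TPM 730), a splicing factor, Il1b (0.23, 774), a cytokine, Sod2 (0.25, 709), a mitochondrial dismutase, Ccnl1 (0.28, 695), a cyclin, and Rasgef1b (0.28, 852). All 5 had their highest TPM in replicate 1 and their lowest in replicate 2, as Tnfaip3 did. They were picked by these same 3 values, so the shared order is not a separate result. On the log2 CPM scale, 36.3% of 12931 expressed genes were highest in replicate 1 and 38.3% lowest in replicate 2. These shares were not counted in TPM. In TPM the reference gene also stood highest in replicate 1, at 7.56, against 6.64 and 6.56 in replicates 2 and 3. Over 3 libraries this distance reads mostly the mean level.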

How the data were processed

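Chromatin-associated RNA of 3 libraries was sequenced. Expected counts, TPM and FPKM per gene and transcript were deposited by the authors from transcriptome alignments, and another deposited transcript table holds estimated counts and TPM derived directly from the reads. Per the file headers and deposited notes, assembly mm10 and annotation M21 apply. Programs and strand handling: not given in the sources used here.

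tRNA, ERCC and phiX rows (26248, 96 and 1) were left out of tests. Members, list genes, markers and every gene averaging 0.1 TPM or more were tested as log2(TPM + 0.1) minus the library's reference level (the median of nuclear protein-coding genes averaging 1 TPM or more), with limma 3.58.1 treat, trended prior, two-sided. A fold on this scale understates differences of low genes. Rounded expected counts were scaled with edgeR 4.0.16 (TMM, filterByExpr minimum 10, prior count 2) in R 4.3.3, to describe spread only. Isoforms were summed by annotated type. Both statistics were tested on simulated data. The SEs and p-values from limma combine a gene's own variance between these libraries with a prior drawn from all genes tested. They therefore do not measure the spread of that gene alone over its 3 libraries, which cite 1 donor entry. The floor of detection, 3 counts of the total, was 2.36e-05%, 1.64e-05% and 1.66e-05% of counts in replicates 1, 2 and 3 and covers counting error only. Alternatives were other pseudocounts, filters, bands, reference genes, tables, units and scalings, and each replicate left out.

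A further list of genes is not reported here. Members and lists were chosen with earlier results of these data known. Named genes are the members, in each list the 3 highest and the lowest by mean TPM plus any called against its list, and the 5 genes nearest to Tnfaip3. Ranks and percentiles describe these libraries.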

Additional observations from a re-analysis of the deposited data

How the results depend on the processing

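The number of members called higher stayed at 6 with any 1 replicate left out and lay between 4 (4-fold band, or reference genes from a TPM of 5) and 7 (no band, or reference genes from a TPM of 0.1) elsewhere, and the number lower at 0, except 1 (Rnf11) with no band or where the reference genes started at a TPM of 5. Of the 59 pathway genes, 34 were higher, 47 with no band, 47 where the reference genes started at a TPM of 0.1, 43 in the alignment-free table, 28 with protein-coding isoforms only, 21 with a band of 4-fold and 21 where the reference genes started at a TPM of 5, and 30 to 34 with a replicate left out. The number lower was 2 (2 to 2 with a replicate left out), against 6 with no band, 0 with a 4-fold band, 0 and 10 where reference genes started at a TPM of 0.1 and of 5, 1 in the alignment-free table and 4 with protein-coding isoforms only. Of all genes tested, 23.4% were higher and 65.3% lower with no band, and 7.97% and 36.4% with the 4-fold band. The shares were 16.4% and 48.2% in the alignment-free table, and 15.9% and 45% with protein-coding isoforms only. Reference genes from a TPM of 0.1 shift every gene by 1.06 log2 units and those from a TPM of 5 by -1.19, and of all genes 24.5% are then higher and 36.6% lower, and 7.31% higher and 68.9% lower, against 15.1% and 52.4% as reported; under the shift of -1.19 Cyld reversed to -0.577 (adjusted p = 1, limma treat; 0.61 as reported, range -0.577 to 1.68 over 15 alternatives). The difference of Tnip3 minus Tnip1 reversed to -0.206 in the alignment-free table and to -1.31 with protein-coding isoforms; the cause was not tested. Tnip2 and Itch were not called with the 4-fold band, and Itch (0.67) not with protein-coding isoforms. Tnfaip3, Tnip1, Tnip3 and Tax1bp1 kept their call in all 15 alternatives. Averaged over libraries, the members' median retained-intron share was 46.6%, against 53.3% in the alignment-free table, 39.9% of expected counts and 46.1 to 47.0% with a replicate left out. The median SD was 0.147, and 0.119 to 0.192 with a replicate left out. No paired analysis was possible because all libraries belong to 1 group. The series has no control here, RNA input differs by replicate and cannot be told apart from it, and Rnf11, on 162 to 214 counts, and single isoforms are limited by depth and by the division of shared reads.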

Other observations

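RefSeq gives Tnfaip3 a second start, inside its first intron, and Tnfaip3-202 begins there (chromosome 10, 19011963). This isoform had 202.19, 126.53 and 164.07 TPM in replicates 1, 2 and 3 in the alignment-based table and 222, 118 and 172 TPM in the alignment-free table, 21.4% ± 0.95 (SD, n = 3) of the gene's TPM in the alignment-based one. The 250 bases before this start held 0 matches to the NF-κB consensus, and 46.4% of them were G or C, against 58.8% before the upstream start. Tnfaip3-202 reaches 173 bases into intron 1 of Tnfaip3-201, and unspliced RNA from the upstream start would hold these bases too. The TPM of Tnfaip3-202 is thus no measure of the use of the second start, which was not tested.

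Single isoforms differed most between the 2 kinds of table. Tnfaip3-204 (456 bases) had 53.8, 30.62 and 37.63 TPM in the alignment-based table but 441, 203 and 305 TPM in the alignment-free one. Tnip1-204 had 0.37, 0.66 and 0 TPM, against 51.2, 34.4 and 41.1 TPM in the alignment-free table.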
